A study of Mus musculus with 23 samples.

Results

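The baseline transcriptomes of the blood vessel cells and the cancer cells of an untreated mammary tumour were compared here. Py2T cells, a murine breast cancer line that derives from a mammary tumour of an MMTV-PyMT mouse, had been grown in the mammary fat pad of female FVB/N animals. Both cell types were recovered from those tumours by fluorescence-activated sorting. Each of 3 untreated tumour cell samples and 3 untreated blood vessel endothelial samples was hybridised to 1 array, 6 of the 23 arrays of the series. These tumours were size-matched to the long-term treated ones. No label used here names the markers of the sort. The labels call the samples biological replicates, but do not say whether a tumour and an endothelial sample of the same number came from 1 animal. The other 17 arrays hold both cell types from animals given nintedanib at 50 mg per kg for 7 or 21 days. They entered the choice of the cluster that stands for each gene, the estimate of each gene's spread and 1 later comparison. All tumours grew from 1 cell line, and the host animals were the source of the vessels.

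Blood vessels in a tumour grow by sprouting. Endothelial cells carry the receptors for vascular endothelial growth factors, angiopoietins and apelin on their surface, while much of the growth factor is made by the cells around the vessel. Notch signals between neighbouring endothelial cells set which cell leads a sprout and which follow. Carcinoma cells carry keratins and desmosomes of their epithelial origin, and can lose part of them and take up mesenchymal transcription factors, a process called epithelial-mesenchymal transition.

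Levels are log2 signals, and a difference is always endothelial minus tumour, so that a difference of 1 is 2-fold. An error after ± is the standard error of limma's fit, with n = 3 arrays in each group unless other numbers are given. A gene was called when limma's p, adjusted by the Benjamini-Hochberg method over all 19938 genes, was under 0.05. Of all genes 18.3% were called, 8.18% as higher and 10.2% as lower in endothelial cells, and 35.7% had 6 arrays without overlap between the groups. Counts of called members of a list are to be read against these shares. The median of all differences was 0.03. Among called genes 44.6% were higher in endothelial cells, a split that was 34.1% after median centring of the arrays and 60.3% after centring on their 75th percentile. That last step moved the median of all genes to 0.17, so directions of small differences are relative to the chosen centre.

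Arrays of 1 cell type resembled each other more closely than arrays of the 2 cell types. Pairs of tumour arrays correlated across genes at 0.983 to 0.988, pairs of endothelial arrays at 0.959 to 0.973, and pairs of 1 tumour and 1 endothelial array at 0.881 to 0.917. Endothelial replicate 1 stood apart from the other endothelial arrays. Over the 507 genes called at least 4-fold higher in endothelial cells (2.54% of all genes), its mean level was 7.87, against 8.50 and 8.59 in replicates 2 and 3 and 4.78 to 4.87 in tumour arrays. It was the lowest endothelial array for 398 of those genes. Over the 238 genes called at least 4-fold lower (1.19% of all genes), the endothelial means were 6.53, 5.51 and 5.95, and the tumour means 8.54 to 8.59. Replicate 1 was the highest endothelial array for 171 of these, and replicate 2 the lowest for 152. These genes were chosen on the same arrays, so the means describe them only. Its macrophage markers were also highest, as given with the marker lists. Without replicate 1 the count of called genes was 3438, with 1652 higher and 1786 lower. It was 2692 without tumour replicate 1, the lowest count when any of the 6 arrays was left out.

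The endothelial side of the comparison held far larger differences than the tumour side. Of the genes called higher in endothelial cells, 272 differed by at least 3 log2 units, 146 by at least 4 and 33 by at least 6. Among genes called lower, 40 differed by at least 3 and 5 by at least 4, and none by 5 or more. The median of the differences was 1.28 for genes called higher and -1.08 for genes called lower. Replicate spread also differed between the cell types: the SD over 3 arrays was larger in endothelial than in tumour arrays for 64.2% of all genes, for 78.1% of those called higher and for 63.5% of those called lower.

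**Figure D1:**
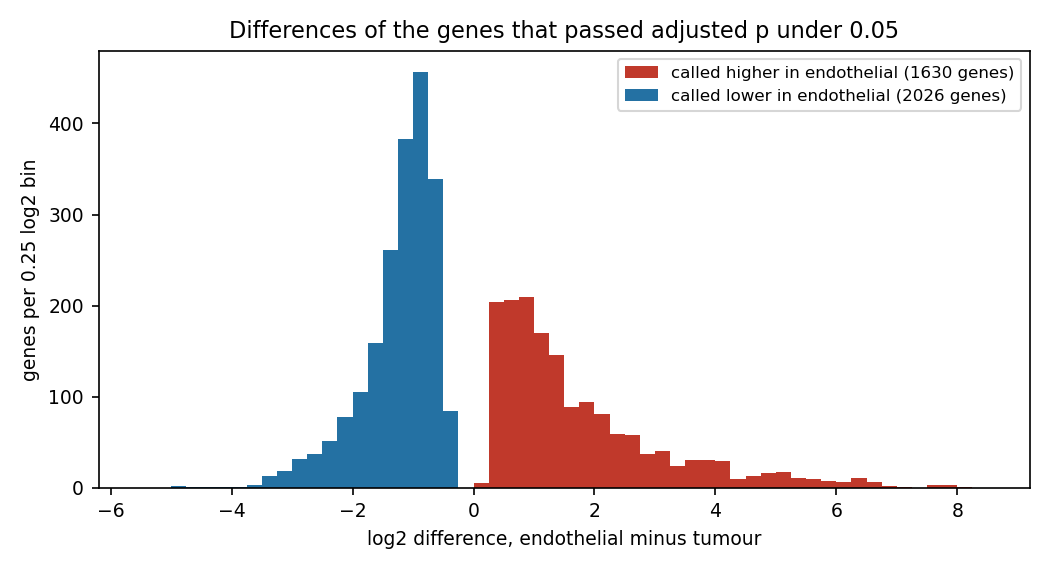
Log2 differences, endothelial minus tumour, of the genes that passed adjusted p under 0.05, as genes per 0.25 log2 bin (linear axes), red for 1630 genes called higher and blue for 2026 called lower in endothelial cells. The red tail runs past 8 log2 units, and the blue tail is shorter, with no gene 5 or more log2 units below 0.

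The 12 genes with the largest differences were higher in endothelial cells by 6.63 log2 units or more. Emcn, a sialomucin of capillary and venous endothelium, read 11.33, 11.92 and 11.77 in endothelial replicates 1 to 3 and 4.10, 3.14 and 3.39 in tumour replicates 1 to 3. The groups lay over 7 log2 units apart for Emcn, with a difference of 8.13 ± 0.20 (limma adjusted p = 1.16e-16). Cd34, a sialomucin shared by endothelium and blood progenitors, read 11.33, 11.88 and 11.77 against 3.69, 3.45 and 4.03, a difference of 7.94 ± 0.16. Lrg1, a secreted modulator of TGF-beta signals in vessels, read 11.87, 12.22 and 12.06 against 4.11, 4.28 and 4.01, a difference of 7.92 ± 0.21. For all 3 genes every endothelial array was above every tumour array, as for 1584 of the 1630 genes called higher. Cd93, a C-type lectin receptor, differed by 7.58 ± 0.19, and the adhesion receptor genes Adgrl4 and Adgrf5 by 7.54 ± 0.16 and 6.91 ± 0.27. The endothelial label was checked on its defining markers, all far higher in endothelial arrays. Pecam1 read 11.12, 11.54 and 11.68 against 4.37, 4.43 and 4.32, and Cdh5, the cadherin of endothelial junctions, 11.87, 11.99 and 12.27 against 3.89, 4.54 and 3.93. All 24 genes of an endothelial identity list were called higher, against 8.18% of all genes, with a median difference of 6.10. The arrays of the 2 groups did not overlap for any gene of the list, against 35.7% of all genes without overlap. The smallest difference was that of Vwf, von Willebrand factor, at 2.99 ± 0.35. That list names textbook endothelial genes, and earlier results on these arrays were known when it was chosen.

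**Figure D2:**
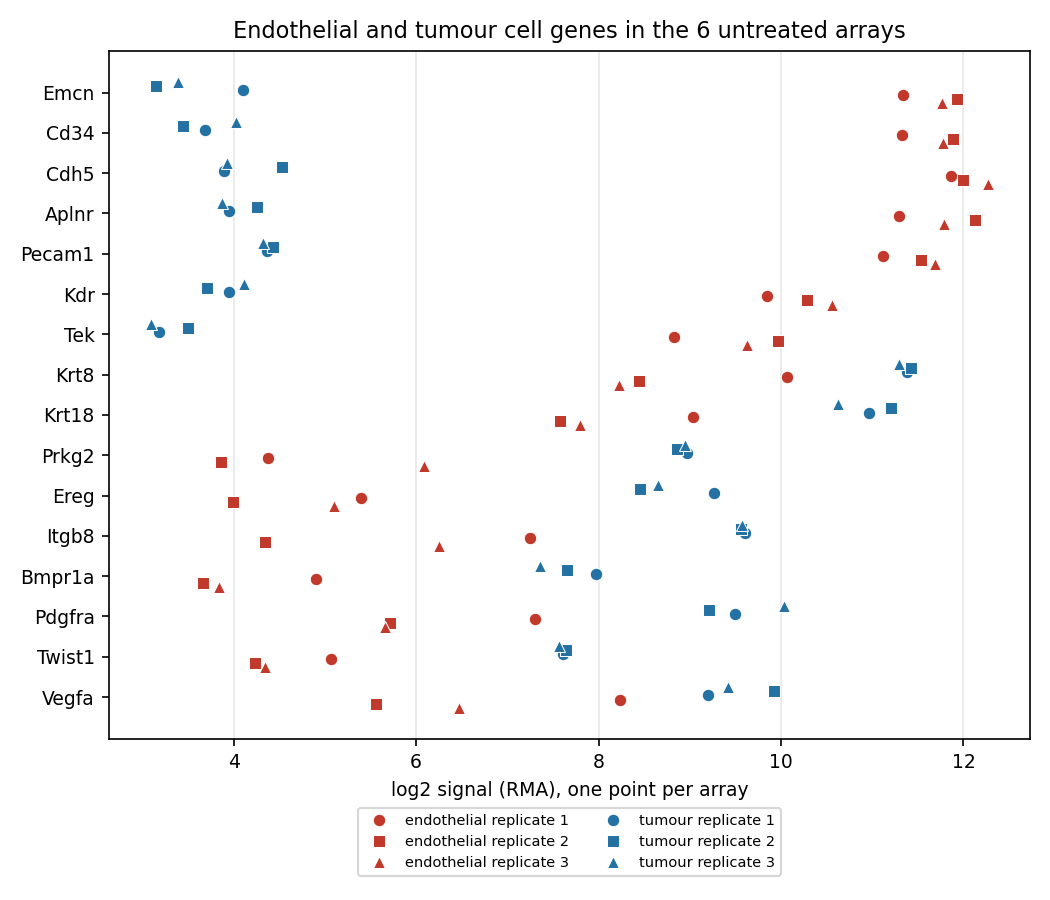
Log2 signal of 16 genes in each of the 6 untreated arrays, red for endothelial and blue for tumour cells, with 1 marker shape per replicate number. Vessel genes from Emcn to Tek lie above 8 in red and below 5 in blue, while the red points of tumour-side genes spread widely, with replicate 1 the highest for Krt8, Krt18, Itgb8, Pdgfra and Vegfa.

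The keratins Krt8 and Krt18 were higher in tumour cells but not low in endothelial arrays. Krt8 read 11.38, 11.42 and 11.29 in tumour arrays and 10.06, 8.45 and 8.23 in endothelial arrays, where replicate 1 was the highest. Krt18 read 10.96, 11.20 and 10.63 against 9.04, 7.58 and 7.79, in the same order. Neither gene overlapped between the groups. The part of tumour cell RNA in the endothelial arrays in these values was not tested.

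The listed receptors of vessel growth were on the endothelial side, and their ligands on both. All 22 listed receptors and co-receptors were called higher, with a median of 5.34. Of 31 ligands 12 were called higher and 8 lower, and 11 did not pass. In bulk RNA a lower share of expressing cells and a lower level per cell cannot be told apart.

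In the VEGF system Kdr and Flt1, the receptor genes for VEGF-A, were higher by 6.31 ± 0.20 and 6.36 ± 0.22, and the VEGF-C receptor gene Flt4 by 5.06 ± 0.26. Flt4 read 8.38, 9.12 and 9.60 in endothelial arrays and 3.76, 4.13 and 4.03 in tumour arrays. The groups were over 4 log2 units apart. The co-receptor gene Nrp1 read 9.31, 9.98 and 10.18 against 7.12, 7.46 and 7.26, with a difference of 2.55 ± 0.27, and Nrp2 differed by 0.98 ± 0.24. Vegfa, the main ligand of Kdr, was lower in endothelial cells. It read 9.20, 9.92 and 9.41 in tumour arrays and 8.24, 5.56 and 6.47 in endothelial arrays, a difference of -2.76 ± 0.54 (limma adjusted p = 0.00103). The endothelial arrays spread over more than 2 log2 units, replicate 1 being closest to the tumour level, and no array overlapped. Vegfc, a ligand of Flt4, went the other way, at 7.67, 8.89 and 8.52 against 7.39, 7.22 and 6.48 and a difference of 1.33 ± 0.31. With the 6 untreated arrays alone Vegfc did not pass (adjusted p = 0.067). Vegfd, another Flt4 ligand, was lower by the full fit at -2.14 ± 0.60, and did not pass without endothelial replicate 2 (-1.57, adjusted p = 0.108), endothelial replicate 3 (-2.01, adjusted p = 0.0513) or tumour replicate 1 (-2.03, adjusted p = 0.0583). Vegfb (-0.17 ± 0.34) and Pgf (0.36 ± 0.51) did not pass.

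The angiopoietins were divided between the cells. Angpt1, the agonist of the Tek receptor that steadies vessels, read 8.65, 8.26 and 9.03 in tumour arrays and 4.89, 4.61 and 6.59 in endothelial arrays, a difference of -3.29 ± 0.58. Endothelial replicate 3 was the highest of its group and still below all tumour arrays. Angpt2, its context-dependent antagonist, read 7.06, 6.96 and 7.49 in endothelial and 5.55, 4.77 and 5.42 in tumour arrays, a difference of 1.92 ± 0.41 (limma adjusted p = 0.00181). Both receptor genes were endothelial, Tek at 6.21 ± 0.26 and Tie1 at 5.33 ± 0.17.

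Ligand and receptor of the apelin system were both higher in endothelial cells. Aplnr, the apelin receptor gene, read 11.30, 12.13 and 11.78 against 3.95, 4.26 and 3.87, and Apln 9.76, 11.32 and 10.81 against 6.60, 6.94 and 6.59. The differences were 7.71 ± 0.34 and 3.92 ± 0.39, and for both genes endothelial replicate 1 was the lowest of its group. Calcrl and Ramp2, which together form an adrenomedullin receptor, differed by 6.97 ± 0.20 and 6.63 ± 0.28, while the ligand gene Adm (1.30 ± 0.56, limma adjusted p = 0.12) did not pass. Of the guidance genes, the receptors Plxnd1 (5.12 ± 0.32), Robo4 (5.77 ± 0.19) and Unc5b (3.42 ± 0.37) and the ligand Sema3f (2.42 ± 0.30) were higher in endothelial cells, and Sema3a was lower at -2.57 ± 0.37. Sema3a read 8.79, 9.08 and 8.59 in tumour and 7.06, 5.99 and 5.71 in endothelial arrays.

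In the platelet-derived growth factor system both receptor genes were higher in tumour cells and 2 ligand genes higher in endothelial cells. Pdgfb, which recruits pericytes, read 7.46, 7.98 and 8.51 in endothelial and 5.12, 5.25 and 5.15 in tumour arrays, with a difference of 2.81 ± 0.27, and Pdgfd differed by 2.64 ± 0.48. The receptor gene Pdgfra read 9.50, 9.21 and 10.03 in tumour and 7.30, 5.72 and 5.66 in endothelial arrays, a difference of -3.35 ± 0.56. Pdgfrb read 8.02, 9.08 and 8.60 against 5.83, 6.63 and 6.38, a difference of -2.28 ± 0.35. Neither receptor gene overlapped between the groups. Pdgfra is also a listed fibroblast marker and Pdgfrb a listed pericyte marker, and the part of such RNA in the tumour arrays was not tested. Pdgfa (-0.50 ± 0.20) and Pdgfc (-1.37 ± 0.90) did not pass, although Pdgfc did with the 6 untreated arrays alone (adjusted p = 0.0351) and Pdgfa after median centring (-0.58, adjusted p = 0.0466). In the FGF system Fgf2 read 6.83, 7.92 and 6.79 in tumour and 5.18, 5.12 and 4.82 in endothelial arrays, a difference of -2.14 ± 0.29. Fgf7, keratinocyte growth factor, was called lower at -1.74 ± 0.53, but not without endothelial replicate 2 (-1.52, adjusted p = 0.104), endothelial replicate 3 (-1.73, adjusted p = 0.0586) or tumour replicate 3 (-0.93, adjusted p = 0.182). The receptor gene Fgfr1 was lower in endothelial cells at -1.08 ± 0.17, and Fgfr2 (0.14 ± 0.25), Fgfr3 (0.27 ± 0.16) and Fgfr4 (0.02 ± 0.14) did not pass. So of the 9 receptor kinase genes of the VEGF, PDGF and FGF families, the targets of nintedanib, 3 were higher in endothelial cells, 3 higher in tumour cells and 3 uncalled, without treatment.

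**Figure D3:**
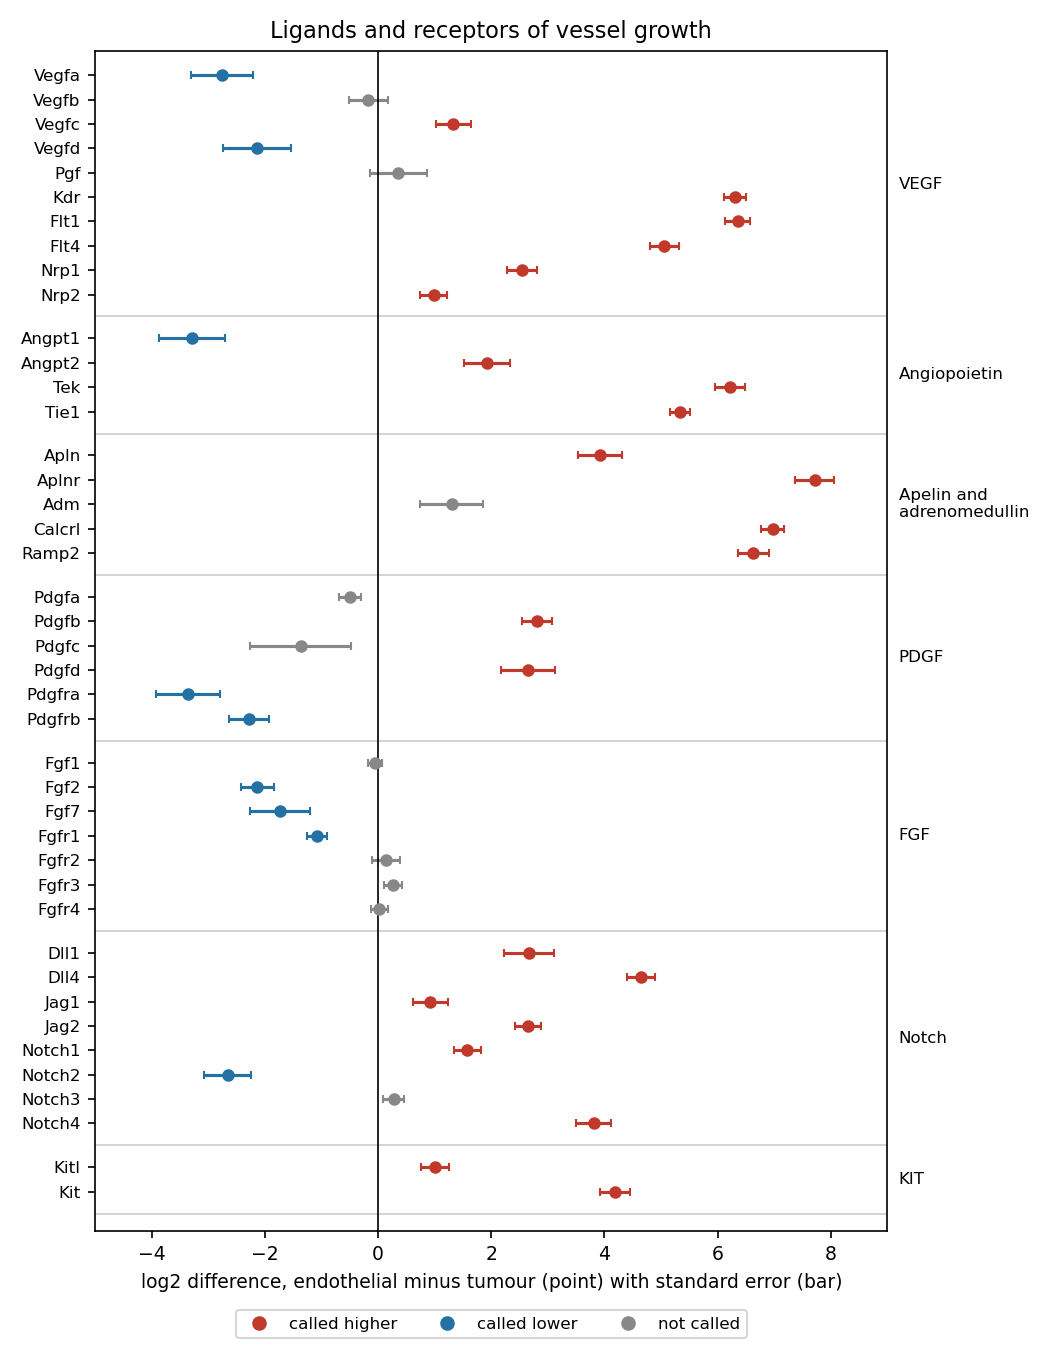
Log2 difference, endothelial minus tumour, with its standard error, for ligands and receptors grouped by family, red for called higher, blue for called lower and grey for not called. Every VEGF, angiopoietin and apelin receptor lies to the right of 0, while Vegfa, Angpt1, Fgf2, Pdgfra and Pdgfrb lie to the left.

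The KIT receptor and its ligand were also both higher in endothelial cells. Kit, known from blood progenitors, mast cells and luminal mammary progenitors, read 7.85, 8.21 and 8.43 in endothelial and 3.97, 4.03 and 3.92 in tumour arrays, a difference of 4.19 ± 0.26. The tumour arrays lay close together and far below the endothelial ones. Kitl differed by 1.01 ± 0.25, with endothelial replicate 1 and tumour replicate 1 almost touching at 7.31 and 7.26. With the 6 untreated arrays alone Kitl did not pass (adjusted p = 0.0704).

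Of 16 Notch pathway genes 9 were higher and 2 lower in endothelial cells, with a median of 1.25. The ligand Dll4, which marks leading sprout cells, read 9.25, 9.62 and 9.93 against 4.88, 4.74 and 5.22, a difference of 4.65 ± 0.24. The ligands Jag2 and Dll1 differed by 2.65 ± 0.23 and 2.66 ± 0.45. The receptor genes were divided. Notch4 read 8.83, 9.88 and 9.66 in endothelial and 5.52, 5.69 and 5.75 in tumour arrays, a difference of 3.81 ± 0.31, and Notch1 differed by 1.58 ± 0.24. Notch2 was the tumour-side receptor, at 8.52, 8.91 and 9.06 in tumour and 6.90, 5.18 and 6.44 in endothelial arrays, a difference of -2.66 ± 0.41. Mfng, a glycosyltransferase that tunes Notch receptors, differed by 4.35 ± 0.23. The Notch targets Nrarp and Hey1 differed by 3.79 ± 0.23 and 3.95 ± 0.39. Rbpj, the DNA-binding partner of all Notch receptors, was lower in endothelial cells at -1.66 ± 0.29, with 9.54, 9.16 and 9.53 in tumour and 8.27, 7.03 and 7.96 in endothelial arrays. Jag1 (0.92 ± 0.31) was called but did not pass without endothelial replicate 2 (0.59, adjusted p = 0.26) or 3 (0.82, adjusted p = 0.125). It did not pass either without tumour replicate 1 (0.74, adjusted p = 0.188), 2 (1.01, adjusted p = 0.0612) or 3 (1.02, adjusted p = 0.0616).

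Endothelial transcription factor genes followed the surface genes. Of 29 listed, 21 were higher and 3 lower, with a median of 2.09. The SoxF factors, which specify vessels and lymphatics, differed by 6.69 ± 0.18 for Sox18, 5.0 ± 0.28 for Sox7 and 3.59 ± 0.32 for Sox17. Sox17, tied to arteries, read 6.04, 7.78 and 7.40 in endothelial arrays against 3.28, 3.71 and 3.46 in tumour arrays, so replicate 1 was well below the others but above all tumour arrays. The ETS factors Erg, Fli1 and Ets1 differed by 5.08 ± 0.24, 4.62 ± 0.25 and 3.26 ± 0.16. Erg read 9.14, 9.34 and 9.71 against 4.27, 4.41 and 4.27, and Ets1 was not low in tumour cells, at 7.25, 7.18 and 7.18 against 10.14, 10.62 and 10.63 in endothelial arrays. Bcl6b (5.62 ± 0.27), Lmo2 (4.08 ± 0.28), Meox1 (3.71 ± 0.33) and Meox2 (3.66 ± 0.29) were also higher. Nr2f2, known as a venous factor and also expressed in many stromal cells, was lower in endothelial cells, at 9.60, 9.94 and 9.78 in tumour and 8.72, 8.39 and 8.55 in endothelial arrays. The other 2 called lower, Klf4 (-1.01 ± 0.27) and Foxc2 (-1.22 ± 0.41), both lost the call when single arrays were left out. Klf4 did not pass without endothelial replicate 2 (-0.75, adjusted p = 0.0873) or tumour replicate 1 (-0.84, adjusted p = 0.0729). Foxc2 did not pass without endothelial replicate 1 (-0.97, adjusted p = 0.175) or 3 (-1.14, adjusted p = 0.113), or without tumour replicate 1 (-1.33, adjusted p = 0.0708), 2 (-0.99, adjusted p = 0.172) or 3 (-1.33, adjusted p = 0.07).

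Because ETS factors bind DNA around a GGAA core, the promoter windows of the genes were searched for it. Windows are the 250 bases before a transcript start in RefSeq (GRCm38.p6), and 15614 of the tested genes had at least 1. Below are the windows of 3 strongly endothelial genes, the mucin gene Emcn and the receptor genes Kdr and Tie1, and of the tumour-side factor gene Twist1, printed in the direction of transcription with each GGAA or its reverse complement TTCC in capitals.
Emcn (chr3:137340828-137341077, plus strand): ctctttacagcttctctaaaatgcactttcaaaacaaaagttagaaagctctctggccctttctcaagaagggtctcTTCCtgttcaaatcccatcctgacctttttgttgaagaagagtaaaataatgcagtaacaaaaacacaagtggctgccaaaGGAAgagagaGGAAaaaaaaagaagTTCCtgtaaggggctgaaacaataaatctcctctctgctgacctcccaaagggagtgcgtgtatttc
Kdr (chr5:75978456-75978705, minus strand): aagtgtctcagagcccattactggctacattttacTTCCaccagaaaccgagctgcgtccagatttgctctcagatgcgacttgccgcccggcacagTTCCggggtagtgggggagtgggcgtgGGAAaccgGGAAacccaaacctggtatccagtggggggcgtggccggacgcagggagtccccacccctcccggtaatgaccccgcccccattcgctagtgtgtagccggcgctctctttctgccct
Tie1 (chr4:118489850-118490099, minus strand): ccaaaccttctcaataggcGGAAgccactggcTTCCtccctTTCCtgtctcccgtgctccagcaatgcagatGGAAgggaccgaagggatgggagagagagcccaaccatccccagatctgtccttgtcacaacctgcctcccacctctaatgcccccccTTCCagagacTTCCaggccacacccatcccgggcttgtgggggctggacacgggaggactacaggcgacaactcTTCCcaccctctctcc
Twist1 (chr12:33957421-33957670, plus strand): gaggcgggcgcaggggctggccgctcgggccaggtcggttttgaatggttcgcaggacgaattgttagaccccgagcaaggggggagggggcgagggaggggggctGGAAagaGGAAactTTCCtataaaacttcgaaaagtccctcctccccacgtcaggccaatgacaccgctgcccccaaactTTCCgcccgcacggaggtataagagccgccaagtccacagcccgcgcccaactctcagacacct
The Emcn, Kdr, Tie1 and Twist1 windows held 4, 4, 7 and 4 copies. A GGAA on either strand was in 92.8% of 499 windows of 362 of the 507 genes called at least 4-fold higher in endothelial cells, in 90.6% of 224 windows of 167 genes called at least 4-fold lower, and in 93.1% of all 19177 windows. So the short core was in nearly every window of all 3 sets. The longer ETS site CCGGAAG was in 2.81% of windows on the endothelial side, in 4.02% on the tumour side and in 9.41% of all. CCGGAAG contains GGAA and overlaps it. The other motifs searched, on both strands, were the forkhead site TGTTTAC (1%, 3.57% and 2.67% in the same order), the GATA site AGATAA (7.62%, 5.36% and 8.45%), the Sox site ATTGTT (6.61%, 7.14% and 7.54%) and the Klf site CACCC (61.5%, 67% and 55.4%). The E-box CACCTG, read by Twist, Snail and Zeb factors, was in 16.8%, 17.4% and 16.9%, and AACCGGTT, a grainyhead site, in 0%, 0.446% and 0.136%. These shares are descriptions of short windows with no test.

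Endothelial junction genes separated the cell types and most epithelial ones did not. Of 17 endothelial junction genes 12 were higher and none lower (0 at an unadjusted p under 0.05), with a median of 2.66. Cldn5, the claudin of vessel walls, read 10.08, 10.52 and 10.68 against 4.65, 4.62 and 4.68. Of the connexin genes Gja4 and Gja5, both arterial, Gja4 read 8.61, 10.44 and 9.01 against 4.44, 4.55 and 4.25 and Gja5 7.42, 8.23 and 8.44 against 3.88, 4.15 and 4.08, with differences of 4.94 ± 0.30 and 3.99 ± 0.51. The third connexin gene, Gja1, read 11.15, 11.08 and 11.50 in endothelial and 11.53, 11.42 and 11.76 in tumour arrays and did not pass. Of 34 epithelial junction genes 4 were lower in endothelial cells and 3 were higher, both close to the shares over all genes. Their median, 0.06, changed sign under median centring (-0.03). The genes lower in endothelial cells were the desmosome plaque genes Pkp1 (-2.22 ± 0.39), Pkp2 (-2.13 ± 0.31) and Ppl (-2.11 ± 0.47) and the claudin gene Cldn1 (-2.37 ± 0.59). Cldn1 read 7.63, 7.05 and 7.50 in tumour arrays and 6.41, 4.16 and 4.50 in endothelial arrays, with endothelial replicate 1 the highest. F11r, the tight junction molecule JAM-A, which endothelium also carries, was higher in endothelial cells at 4.90 ± 0.43. It was uneven in tumour arrays, at 7.14, 5.45 and 4.73, and replicate 1 was the highest of them. Jup, plakoglobin, which binds both desmosomal cadherins and Cdh5, was higher at 1.06 ± 0.23. The other called higher, the matriptase gene St14 (0.58 ± 0.18), did not pass without endothelial replicate 1 (0.51, adjusted p = 0.106), endothelial replicate 2 (0.55, adjusted p = 0.0936), tumour replicate 1 (0.60, adjusted p = 0.0676) or tumour replicate 3 (0.49, adjusted p = 0.129).

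The epithelial surface genes Epcam and Cldn7 did not separate the sorted tumour cells from the endothelial ones. In both cell types they read near the median of all clusters of each array, 4.40 to 4.55 over the series. Epcam read 4.87, 4.04 and 3.97 in tumour and 4.68, 4.97 and 4.48 in endothelial arrays, with overlap. The tight junction gene Cldn7 read 4.64, 4.36 and 4.50 against 4.71, 4.54 and 4.59, again with overlap. Cdh1, E-cadherin, read 6.91, 6.88 and 8.62 in tumour arrays, where replicate 3 stood above the others, and 6.41, 6.20 and 6.63 in endothelial arrays. The groups did not overlap, but the difference of -1.06 ± 0.38 did not pass (limma adjusted p = 0.0613) but did without tumour replicate 1 (-1.34, adjusted p = 0.0366) or tumour replicate 2 (-1.35, adjusted p = 0.0301). The cadherin gene Cdh2 (0.34 ± 0.12) did not pass either. Among 16 keratin genes 3 were lower in endothelial cells, Krt8 (-2.45 ± 0.62), Krt18 (-2.79 ± 0.61) and the basal keratin Krt14 (-2.21 ± 0.56), and 1 was higher, Krt23 (2.51 ± 0.32). Krt14 missed the threshold without tumour replicate 1 (-1.89, adjusted p = 0.0524). Krt5 (-0.16 ± 0.63), the usual partner of Krt14, and Krt19 (0.41 ± 0.94) did not pass. The tumour label thus found Krt8, Krt18 and Krt14 on its side among the 11 epithelial markers, and 8 were not called.

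Transcription factors of the tumour side came from both epithelial and mesenchymal programmes. Of 20 epithelial factor genes 6 were lower in endothelial cells and 1 higher. The latter, Ovol1 (0.46 ± 0.14), did not pass without endothelial replicate 1 (0.33, adjusted p = 0.132), endothelial replicate 2 (0.36, adjusted p = 0.131), tumour replicate 1 (0.43, adjusted p = 0.0801) or tumour replicate 3 (0.45, adjusted p = 0.0678). Tfap2b read 9.04, 9.38 and 8.0 in tumour and 6.04, 4.49 and 5.52 in endothelial arrays, a difference of -3.46 ± 0.43, and Tfap2a differed by -2.61 ± 0.55. Gata3, the luminal mammary factor, read 8.70, 9.16 and 8.54 against 6.09, 7.33 and 6.08, a difference of -2.30 ± 0.43. Sox9 (-2.27 ± 0.43), Klf5 (-1.31 ± 0.21) and Zfp750 (-1.40 ± 0.28) were lower as well. Grhl2 (-0.24 ± 0.20), a keeper of epithelial junction genes, did not pass and read 3.84, 3.83 and 3.73 in tumour arrays. The list's median of -0.08 became 0.06 after centring on the 75th percentile. Among 17 mesenchymal regulators and markers 6 were lower and 2 higher in endothelial cells. Twist1 read 7.61, 7.65 and 7.56 in tumour and 5.06, 4.24 and 4.35 in endothelial arrays, a difference of -3.06 ± 0.42 (limma adjusted p = 2.10e-05). The tumour arrays lay close together, far above every endothelial array. Twist2 (-2.12 ± 0.32), Prrx1 (-1.91 ± 0.42) and Zeb2 (-1.73 ± 0.31) were lower in the same direction. Zeb1 (0.42 ± 0.22) and Vim (0.21 ± 0.12), which endothelium also expresses, did not pass. The genes called higher were the smooth muscle genes Acta2 (2.23 ± 0.48) and Tagln (0.95 ± 0.25), and Tagln did not pass without endothelial replicate 1 (0.71, adjusted p = 0.0698) or tumour replicate 3 (0.84, adjusted p = 0.054).

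The genes with the largest differences on the tumour side were a mixed set of signalling, matrix and enzyme genes. Prkg2, a cGMP-dependent kinase, read 8.97, 8.87 and 8.94 in tumour and 4.38, 3.86 and 6.09 in endothelial arrays, a difference of -4.15 ± 0.77 (limma adjusted p = 0.00055). The tumour arrays lay close together and the endothelial ones spread, with replicate 3 the highest. Ereg, the EGF receptor ligand epiregulin, read 9.26, 8.46 and 8.65 against 5.40, 4.0 and 5.09, a difference of -3.96 ± 0.71. Itgb8, the integrin chain that releases latent TGF-beta, read 9.60, 9.56 and 9.57 against 7.25, 4.34 and 6.25, a difference of -3.63 ± 0.57. For Itgb8 endothelial replicates 1 and 2 were almost 3 log2 units apart. Bmpr1a, a type I BMP receptor gene, differed by -3.53 ± 0.43, the transmembrane protease gene Tmprss11b by -3.69 ± 0.55 and the transcription factor gene Osr1 by -3.50 ± 0.74. Ttc39c (-3.49 ± 0.52), the aspartoacylase gene Aspa (-3.43 ± 0.62), the matrix gene Matn2 (-3.33 ± 0.57) and the glutathione transferase gene Mgst2 (-3.32 ± 0.69) completed the 12 lowest with Tfap2b and Pdgfra. All 12 had 6 arrays without overlap, as had 1934 of the 2026 genes called lower. They were chosen on the same arrays, so this describes them only. Endothelial replicate 2 was the lowest endothelial array for Itgb8, Osr1 (7.46, 4.79 and 6.08), Tmprss11b (5.68, 3.35 and 4.27), Matn2 (7.27, 5.71 and 6.45) and Mgst2 (6.60, 4.33 and 5.01).

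Basement membrane genes were mostly higher in endothelial cells. Of 25 measured, 15 were higher and 2 lower, with a median of 1.28. The nidogen genes Nid1 and Nid2, which link laminin to collagen IV, differed by 6.38 ± 0.26 and 6.26 ± 0.25. Nid2 read 9.47, 10.64 and 10.40 in endothelial and 3.84, 4.14 and 3.75 in tumour arrays. The laminin chain Lama4, typical of vessels, differed by 5.41 ± 0.25, and the collagen chains Col4a1, Col4a2 and Col15a1 by 4.35 ± 0.28, 3.89 ± 0.25 and 4.24 ± 0.25. Tumour levels of Col4a1 were spread, at 6.15, 6.64 and 7.78, and stayed below the endothelial 10.95, 11.21 and 11.46. The collagen chain Col4a5 went the other way, at -1.54 ± 0.26. The laminin chain Lamb3 (-0.57 ± 0.17) was called lower too, but did not pass without endothelial replicate 2 (-0.57, adjusted p = 0.0688), endothelial replicate 3 (-0.49, adjusted p = 0.102), tumour replicate 1 (-0.56, adjusted p = 0.0739) or tumour replicate 2 (-0.44, adjusted p = 0.138). Integrin genes were divided, 7 higher and 5 lower of 20. Without endothelial replicate 3 the counts were 4 higher and 3 lower, and 3 were lower without endothelial replicate 2 or without tumour replicate 2. Higher were Itga9 (3.79 ± 0.34), the collagen receptor chain Itga2 (3.28 ± 0.31), Itgb3 (2.45 ± 0.47) and the laminin receptor chain Itga6 (1.11 ± 0.23). Its hemidesmosome partner Itgb4 was lower at -1.06 ± 0.24, with 8.81, 8.81 and 8.79 in tumour and 8.07, 7.82 and 7.33 in endothelial arrays.

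Matrix proteases and their inhibitors were also split, 9 higher and 7 lower of 24. Of the called ADAM and ADAMTS genes 7 were on the endothelial side and Adam8 (-1.14 ± 0.24) on the tumour side. Adamts4, an aggrecan-cleaving enzyme, read 9.50, 9.92 and 9.99 against 5.43, 5.97 and 5.33, a difference of 4.23 ± 0.22, and Adamts9 (2.67 ± 0.35), Adam10 (1.90 ± 0.23) and Adam15 (1.68 ± 0.16) were higher. Of the called MMP genes 4 were on the tumour side. Mmp3, stromelysin, read 7.61, 7.19 and 8.68 in tumour and 4.39, 4.64 and 5.73 in endothelial arrays, a difference of -2.91 ± 0.56. Mmp2 (-2.13 ± 0.48), Mmp11 (-2.10 ± 0.43) and Mmp12 (-1.53 ± 0.18) were lower in endothelial cells, and the membrane-bound Mmp14 was higher at 1.19 ± 0.22. The inhibitor genes Timp1 and Timp2 were lower at -1.99 ± 0.32 and -1.53 ± 0.32. Timp2 was even within each group, at 11.01, 11.25 and 11.15 in tumour and 9.59, 9.65 and 9.59 in endothelial arrays.

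Genes of vessel functions were higher as groups. Of 18 coagulation genes 9 were higher and none lower (1 at an unadjusted p under 0.05), with a median of 1.52. Without tumour replicate 3, 1 was lower. Entpd1, the ecto-enzyme CD39 that removes extracellular ATP, read 10.0, 10.63 and 10.78 against 3.96, 4.75 and 4.11, a difference of 6.20 ± 0.26. The anticoagulant genes Tfpi and Pros1 differed by 3.83 ± 0.27 and 4.34 ± 0.41, while Thbd, thrombomodulin, did not pass (0.48 ± 0.25) and read 8.54, 8.09 and 8.95 in tumour arrays. In a list of caveolae, transcytosis and lipid uptake 12 of 21 were higher and Cavin2 (-1.24 ± 0.24) was lower, the latter not with the 6 untreated arrays alone (adjusted p = 0.0548). Gpihbp1, which carries lipoprotein lipase to the capillary lumen, read 10.49, 11.13 and 11.49 against 4.61, 4.88 and 4.53, a difference of 6.36 ± 0.23. The fatty acid carriers Fabp4 and Cd36 differed by 5.57 ± 0.27 and 5.03 ± 0.48. Cd36 was uneven between endothelial arrays, at 6.66, 9.17 and 8.32, against 3.04, 3.02 and 3.0 in tumour arrays. Plvap, the diaphragm protein of fenestrae and caveolae, differed by 5.76 ± 0.25, while the caveolin gene Cav1 (0.42 ± 0.17) did not pass and read 10.60, 10.20 and 10.74 and 10.09, 10.32 and 9.87.

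Leukocyte adhesion genes were less uniform, 4 higher and 2 lower of 11. Icam2 (4.70 ± 0.25) and Lgals9 (3.43 ± 0.27) were far higher in endothelial cells, and the selectin gene Sele was higher at 1.30 ± 0.28. Alcam (-1.37 ± 0.43) was called lower, but not without endothelial replicate 2 (-1.12, adjusted p = 0.141), tumour replicate 2 (-1.31, adjusted p = 0.085) or tumour replicate 3 (-1.15, adjusted p = 0.131). Vcam1 read 5.19, 5.31 and 5.14 in endothelial and 5.14, 5.25 and 4.92 in tumour arrays, with overlap. Ackr1, a marker of venules, did not pass (1.14 ± 0.51), but did with the 6 untreated arrays alone (adjusted p = 0.00778) and with array weights (1.17, adjusted p = 0.0396). Cx3cl1, fractalkine, was lower in endothelial cells at -1.72 ± 0.26, with 8.07, 8.13 and 7.60 in tumour and 5.99, 6.77 and 5.89 in endothelial arrays.

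Gene lists of vessel states share the members Dll4, Unc5b and Ackr1. They also share members with the endothelial identity and receptor lists, such as Cd34, Tek and Aplnr. The comparison is with tumour cells, so the counts cannot tell 1 vessel state from another. Of 20 tip cell genes 17 were higher, with a median of 3.25. Cxcr4, a chemokine receptor of sprouting cells, read 10.04, 9.85 and 10.60 against 4.21, 4.47 and 4.65, a difference of 5.72 ± 0.48. Esm1 read 5.75, 6.06 and 7.85 against 3.14, 3.52 and 3.43, a difference of 3.19 ± 0.50, with endothelial replicate 3 well above the others. Kcne3 (6.11 ± 0.28) was highest in endothelial replicate 1, at 10.36, 8.69 and 9.58. Of 16 arterial genes 12 were higher, with a median of 2.31, and of 15 stalk and capillary genes 10, with a median of 2.99. Of 11 venous and lymphatic genes 4 were higher and 2 lower, with a median of 0.24. The defining lymphatic genes read near or below the median of all clusters of each array, 4.40 to 4.55 over the series, in both cell types. Lyve1 read 4.53, 4.48 and 4.29 in endothelial and 4.43, 4.49 and 4.35 in tumour arrays, and Pdpn 4.45, 4.15 and 4.21 and 4.07, 4.11 and 3.92, and neither passed. Prox1 was called at 0.42 ± 0.14, but read only 3.67, 3.94 and 3.91 in endothelial arrays and lost the call without endothelial replicate 2 (0.37, adjusted p = 0.129) or 3 (0.39, adjusted p = 0.1), or tumour replicate 1 (0.41, adjusted p = 0.0963) or 3 (0.36, adjusted p = 0.133).

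Genes of antigen processing were higher in endothelial cells, with 7 of 16 called higher and none lower (0 at an unadjusted p under 0.05). The immunoproteasome genes Psmb9 and Psmb8 differed by 3.13 ± 0.38 and 2.07 ± 0.32. Psmb9 read 8.13, 9.19 and 9.41 against 5.73, 6.20 and 5.40, with endothelial replicate 1 the lowest of its group. B2m, the light chain of MHC class I, was high in both cell types, at 11.72, 11.89 and 11.78 and 10.84, 11.04 and 10.93, and differed by 0.86 ± 0.12. The peptide transporter gene Tap1 differed by 1.25 ± 0.27. Cd74, the MHC class II invariant chain, differed by 3.02 ± 0.68, but was uneven in endothelial arrays at 9.15, 8.0 and 7.30. Replicate 1, the array with the highest macrophage markers, was also highest for Cd74, and the part of macrophage RNA in it was not tested. Of 22 interferon response genes 6 were higher, among them Ifitm3 (0.72 ± 0.10) and Rsad2 (1.24 ± 0.24), with a median of 0.55. The median was 0.27 without endothelial replicate 2.

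Chemokine, cytokine and epithelial growth factor genes were called on both sides. Of 29 chemokines and cytokines 7 were lower in endothelial cells and 2 higher. Csf1 and Il34, the ligands of the macrophage receptor CSF1R, were both tumour-side. Csf1 read 10.04, 10.13 and 10.25 in tumour and 8.94, 6.84 and 7.68 in endothelial arrays, a difference of -2.32 ± 0.54. Il34 read 7.20, 7.44 and 7.53 against 5.63, 4.76 and 5.47, a difference of -2.10 ± 0.28. Lif, a cytokine of the interleukin 6 family, read 7.28, 8.11 and 6.63 against 4.50, 4.80 and 4.62, a difference of -2.70 ± 0.42. Il18 (-2.50 ± 0.43) and Il33 (-2.01 ± 0.43) were lower too. The interferon-induced chemokine Cxcl9 was higher in endothelial cells at 2.49 ± 0.57, as was Kitl. The number called higher was 4 without endothelial replicate 3. In the epithelial growth factor system 9 of 28 genes were lower and 4 higher. Egfr read 6.36, 6.99 and 6.17 in tumour and 4.85, 4.36 and 4.52 in endothelial arrays, a difference of -1.93 ± 0.21. Met, the HGF receptor gene, differed by -1.85 ± 0.39 and Axl by -2.13 ± 0.45, while the AXL ligand gene Gas6 was higher in endothelial cells at 1.99 ± 0.37. Igfbp3 and Igfbp5, which bind insulin-like growth factors, were higher in endothelial cells at 5.24 ± 0.27 and 4.99 ± 0.46. Igfbp3 was abundant, at 12.38, 12.46 and 12.82 against 6.77, 7.59 and 7.58.

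**Figure D4:**
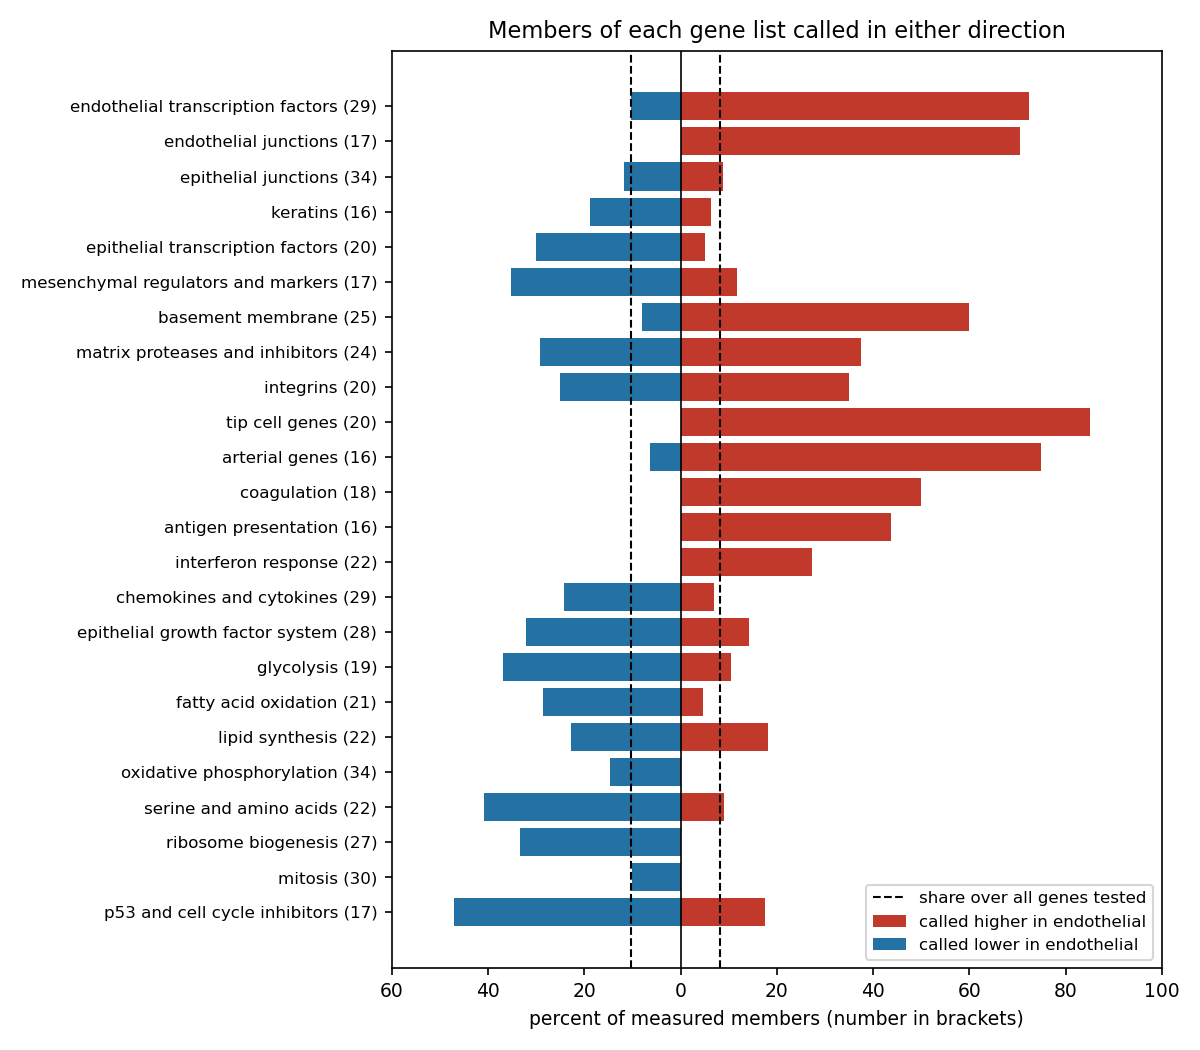
Percent of the measured members of 24 gene lists that were called higher (red, right) or lower (blue, left) in endothelial cells, with the number of members in brackets and dashed lines at the shares over all genes, 8.18% and 10.2%. The longest red bar is that of the tip cell list, with 17 of 20 genes, and the longest blue bar that of the p53 and cell cycle list, with 8 of 17, while ribosome biogenesis, oxidative phosphorylation and mitosis have no red bar.

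Glycolysis genes were called in both directions. Of 19 measured, 7 were lower and 2 higher in endothelial cells, with 4 lower without tumour replicate 1. The phosphofructokinase genes went in opposite directions: Pfkp read 6.62, 7.34 and 7.31 in endothelial and 4.96, 4.69 and 4.80 in tumour arrays, a difference of 2.27 ± 0.31, and Pfkm 5.79, 5.72 and 5.78 and 7.09, 7.07 and 7.20, a difference of -1.36 ± 0.25. Pfkfb3, which makes the activator of phosphofructokinase and is known from sprouting vessels, differed by 2.26 ± 0.34. Eno3 was lower at -2.32 ± 0.47. Of the lactate dehydrogenase genes Ldhb was lower at -1.54 ± 0.27 and Ldha (-0.41 ± 0.17) did not pass. The lactate transporter gene Slc16a1 (MCT1) was lower in endothelial cells, at 7.24, 7.29 and 7.28 in tumour and 4.67, 5.45 and 5.47 in endothelial arrays, a difference of -2.07 ± 0.40. Slc16a3 (MCT4) did not pass (0.72 ± 0.43). It read 6.62, 4.85 and 5.16 in endothelial arrays, with replicate 1 above the rest, and 4.76, 4.86 and 4.85 in tumour arrays. The glucose transporter genes Slc2a1 (0.18 ± 0.37) and Slc2a3 (0.14 ± 0.12) and the hexokinase genes Hk1 (-0.17 ± 0.23) and Hk2 (-0.57 ± 0.20) did not pass. Of 24 hypoxia genes 6 were higher, or 3 without endothelial replicate 1, and 3 lower, a share of 12.5% against 10.2% of all genes. The lower genes were Vegfa, P4ha1 (-1.20 ± 0.26) and Ero1a (-0.97 ± 0.20). With the 6 untreated arrays alone P4ha1 did not pass (adjusted p = 0.0818). Of the listed HIF alpha chain genes Epas1, Hif1a and Hif3a, Epas1 was higher at 4.57 ± 0.36 and Hif1a at 1.88 ± 0.24. Epas1 read 11.08, 11.04 and 11.37 against 6.76, 5.89 and 7.12.

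Lipid genes were called in both directions. Of 22 synthesis genes 5 were lower and 4 higher, and 1 was higher without tumour replicate 3. Acaca and Fasn, which make saturated fatty acids, were lower at -1.33 ± 0.14 and -1.46 ± 0.34. The desaturase gene Scd1 read 10.41, 10.59 and 11.13 in tumour and 8.62, 6.56 and 8.11 in endothelial arrays, a difference of -2.94 ± 0.56. Fads1, which desaturates polyunsaturated fatty acids, read 7.83, 7.29 and 8.02 in endothelial and 4.25, 4.14 and 3.86 in tumour arrays, a difference of 3.63 ± 0.41. In fatty acid oxidation 6 of 21 genes were lower, or 3 without tumour replicate 1, and Pparg was the 1 called higher (2.18 ± 0.27). Acadm (-1.58 ± 0.29) and Cpt1c (-1.34 ± 0.23) were lower. Of 22 serine and amino acid genes 9 were lower and 2 higher. The number lower was 4, 5 and 5 without endothelial replicate 2, tumour replicate 1 and tumour replicate 3. Psat1, of serine synthesis, was lower at -1.87 ± 0.43 and the mitochondrial folate gene Mthfd1l at -1.23 ± 0.25. Psat1 did not pass with the 6 untreated arrays alone (adjusted p = 0.0638). The higher genes were Glul, glutamine synthetase (1.61 ± 0.24), and Slc1a5, a glutamine transporter (2.16 ± 0.42). The malic enzyme gene Me1 was lower at -2.18 ± 0.35, and Gpx3, a secreted glutathione peroxidase, higher at 3.62 ± 0.36. Of 34 respiratory chain genes 5 were lower, 14.7% against 10.2% of all genes, and none higher (1 at an unadjusted p under 0.05). Ndufb9 of complex I was among the lower ones, at -1.12 ± 0.26. This count of lower genes ran from 1 to 4 when single arrays were left out, the lowest without tumour replicate 2, and was 8 after median centring and 1 after centring on the 75th percentile.

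Ribosome biogenesis genes were called on the tumour side. Of 27 ribosome biogenesis genes 9 were lower and none higher (0 at an unadjusted p under 0.05), with a median of -0.60. The nucleolar genes Gnl3 and Tsr1 read 8.81, 8.70 and 8.74 and 7.59, 7.52 and 7.38 in tumour arrays and 7.22, 7.06 and 7.59 and 5.77, 6.19 and 6.28 in endothelial arrays. Their differences were -1.46 ± 0.24 and -1.42 ± 0.24, and neither overlapped. Utp20 was lower at -1.04 ± 0.17. Of 30 mitosis genes 3 were lower, a share close to the 10.2% over all genes. None was higher (0 at an unadjusted p under 0.05), and the median was -0.42. Without endothelial replicate 2 none was lower (5 at an unadjusted p under 0.05), and 1 was without endothelial replicate 1 or tumour replicate 2. Mki67 (-0.48 ± 0.39) did not pass and read 7.32, 7.12 and 7.66 in endothelial and 7.63, 7.94 and 7.97 in tumour arrays. Of 28 replication genes 3 were lower, among them the clamp loader gene Rfc3 (-1.87 ± 0.31), also a share close to that over all genes. The count was 6 without endothelial replicate 1 and 1 without endothelial replicate 2, where 1 was called higher. Among 17 p53 and cell cycle inhibitor genes 8 were lower and 3 higher. Bcl2 (1.05 ± 0.22), which blocks cell death, was among the latter but did not pass with the 6 untreated arrays alone (adjusted p = 0.069), and 1 was higher without endothelial replicate 2 or without tumour replicate 1. Cdkn2a, the locus of p16 and p19ARF, read 8.08, 8.34 and 7.77 in tumour and 5.94, 6.08 and 5.62 in endothelial arrays, a difference of -2.18 ± 0.47. Cdkn2b (-1.62 ± 0.37), Cdkn2c (-1.79 ± 0.33) and the p53 target Perp (-2.77 ± 0.63) were lower as well.

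Markers of other cell types were read in the same arrays, with macrophage markers higher in endothelial replicate 1 and pericyte markers in all endothelial arrays. All 19 macrophage and monocyte markers lay on the endothelial side in sign, their median difference being 1.44, and 3 were called, Ctss (2.65 ± 0.77), C1qb (2.42 ± 0.79) and Laptm5 (2.11 ± 0.68). The list means were 7.69, 5.52 and 5.74 in endothelial and 5.06, 4.52 and 5.05 in tumour arrays. Endothelial replicate 1 was about 2 log2 units above the other endothelial arrays. Without it none of the markers was called (2 at an unadjusted p under 0.05), with Ctss at 1.72, adjusted p = 0.129, C1qb at 1.80, adjusted p = 0.171 and Laptm5 at 1.29, adjusted p = 0.209. The number called was 7 without endothelial replicate 2, 1 without tumour replicate 1 and 1 without tumour replicate 3. None was called without tumour replicate 2 (4 at an unadjusted p under 0.05). Csf1r, which defines the lineage, read 8.14, 4.84 and 5.37 in endothelial and 4.66, 4.55 and 4.87 in tumour arrays. Of 14 pericyte and smooth muscle markers 8 were higher and 1, Pdgfrb, lower. The list means did not overlap, at 5.65, 6.15 and 5.92 in endothelial and 4.50, 4.57 and 4.46 in tumour arrays. Abcc9 read 8.75, 9.81 and 10.23 against 4.29, 4.32 and 4.69, a difference of 5.17 ± 0.36, and Rgs5 5.35, 7.36 and 8.06 against 4.16, 4.16 and 3.87, a difference of 2.86 ± 0.52. Mcam, the largest at 6.39 ± 0.21, is also an endothelial gene. How much pericyte RNA lies in the endothelial values of Acta2 and of the matrix genes was not tested. Fibroblast markers did not go 1 way, with Thy1 higher and Pdgfra and Dcn lower among 14. These shares, 7.14% and 14.3%, were near the 8.18% and 10.2% of all genes. The list means were 5.84, 6.46 and 6.46 in endothelial and 5.89, 6.21 and 6.37 in tumour arrays. Dcn, decorin, was higher in the tumour arrays at 12.92, 12.78 and 13.06 than in the endothelial arrays at 12.26, 10.64 and 12.02, although it missed the threshold without endothelial replicate 2 (-0.78, adjusted p = 0.101). Without endothelial replicate 1, 3 fibroblast markers were higher. How much fibroblast RNA lies in the tumour values of Dcn, Pdgfra, Pdgfrb, Twist1, Twist2, Prrx1 and Osr1 was not tested.

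**Figure D5:**
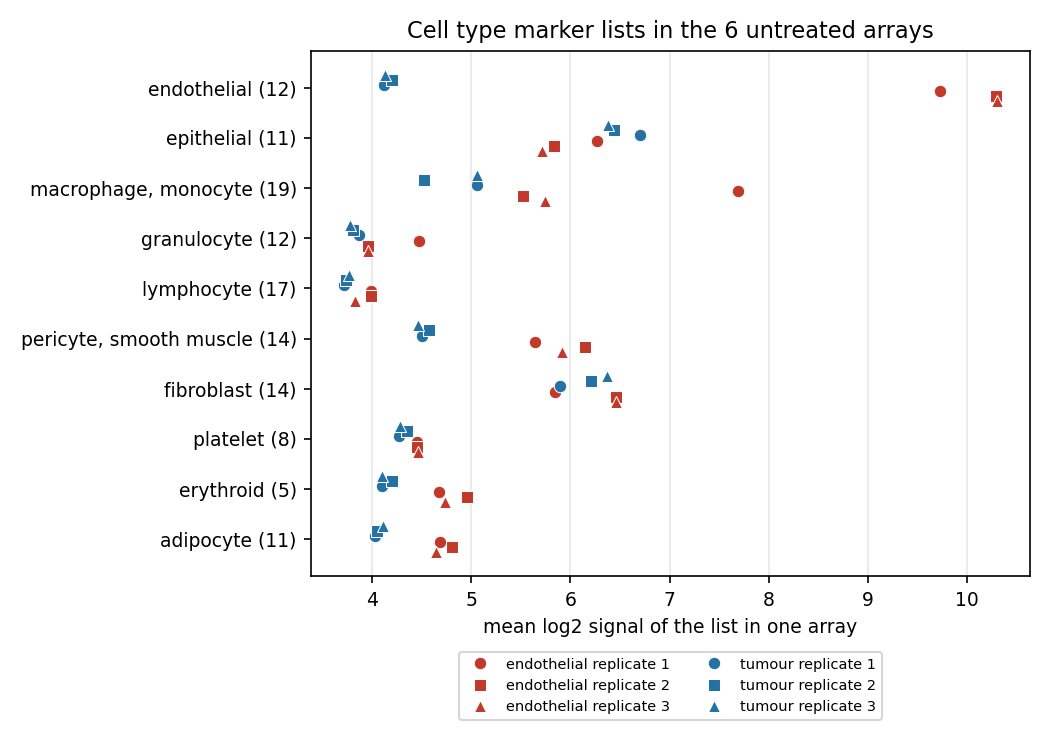
Mean log2 signal of 10 cell type marker lists in each of the 6 untreated arrays, red for endothelial and blue for tumour cells, with 1 marker shape per replicate number and the number of genes in brackets. Endothelial replicate 1 stands to the right of replicates 2 and 3 for macrophage and granulocyte markers and to the left for endothelial markers.

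Markers of the remaining lineages were called in small numbers, from short lists. The shares called higher were 11.8% of lymphocyte, 20% of erythroid and 18.2% of adipocyte markers, against 8.18% of all genes. Fabp4, counted with the adipocyte markers, is also a listed capillary gene. None of 12 granulocyte markers passed in limma (0 higher and 0 lower at an unadjusted p under 0.05), and their list mean was 4.47 in endothelial replicate 1 and at most 3.96 elsewhere. None of 8 platelet markers passed either (0 and 0), and of 5 erythroid markers only Car2 (2.45 ± 0.37). Of 17 lymphocyte markers 2 were higher, Thy1 (2.44 ± 0.55) and Cd2 (0.34 ± 0.11), and Cd8a was lower (-0.67 ± 0.16), though not with the 6 untreated arrays alone (adjusted p = 0.0754). Thy1 is shared with stromal cells, and Cd2 lost the call without endothelial replicate 1 (0.30, adjusted p = 0.128) or 2 (0.33, adjusted p = 0.104) or tumour replicate 1 (0.29, adjusted p = 0.156) or 2 (0.34, adjusted p = 0.0898). Of 11 adipocyte markers Fabp4 and Lipe (0.79 ± 0.27) were called, Lipe not without endothelial replicate 1 (0.79, adjusted p = 0.0934), endothelial replicate 2 (0.72, adjusted p = 0.145), endothelial replicate 3 (0.85, adjusted p = 0.0688), tumour replicate 2 (0.69, adjusted p = 0.153) or tumour replicate 3 (0.75, adjusted p = 0.128), while Adipoq (0.10 ± 0.11) was not. Immediate early genes, which respond to tissue dissociation, were lower in endothelial arrays: 6 of 18 were called lower and none higher (0 at an unadjusted p under 0.05), with list means of 8.33, 8.04 and 8.09 in endothelial and 9.13, 8.70 and 8.78 in tumour arrays. Egr1 differed by -1.58 ± 0.26 and Fos by -1.30 ± 0.29. Whether isolation entered the other differences was not tested.

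The same contrast was computed in the treated animals, in arrays that share no sample with the untreated ones, though the spread was estimated jointly. Of all 19938 genes it called 7972 at 7 days and 6378 at 21 days, against 3656 without treatment. The counts that follow are to be read against these. After 7 days of nintedanib 1590 of the 1630 genes called higher and 1969 of the 2026 called lower had the same sign, in 3 endothelial and 4 tumour arrays. After 21 days the counts were 1604 and 1992, in 5 arrays of each cell type. At 7 days 1294 of the genes called higher and 1573 of those called lower were called in the same direction, and at 21 days 1348 and 1651. Of the genes called in untreated cells 4 were called in the opposite direction at 7 days and 4 at 21 days. The median difference of the genes called higher was 1.28 untreated, 1.09 at 7 days and 1.12 at 21 days. For genes called lower it was -1.08, -1.0 and -0.91. Values of genes chosen on the untreated arrays tend to shrink in other arrays, so the smaller medians are no finding. Kdr differed by 6.37 ± 0.18 at 7 days and 6.20 ± 0.15 at 21 days, Vegfa by -3.20 ± 0.51 and -1.77 ± 0.42, and Twist1 by -2.27 ± 0.39 and -2.25 ± 0.32.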

How the data were processed

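RNA of sorted cells was amplified with NuGEN kits and hybridised to Affymetrix Mouse Gene 1.0 ST arrays. The values the authors deposited are log2 signals per transcript cluster after RMA (oligo package), per the submitters' processing notes. RMA corrects background, quantile-normalizes and summarises probes, and array signals compress large ratios. No further normalization was done. Of 35556 clusters 21789 named 1 gene in the platform annotation, and for each of 19938 genes the cluster with the highest mean over 23 arrays was kept.

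Group means of all 6 groups were fitted with limma 3.58.1 in R 4.3.3 (lmFit, eBayes), so that the treated arrays share in the spread. The fit was also run on simulated arrays in which 200 genes were changed by known amounts. Each simulated gene had the same spread in every group, so this run cannot show how unequal spread between the cell types affects the calls. Each adjusted p weighs a gene's difference against the spread between these samples. That spread was pooled over all 6 groups, treated arrays included. The 12 highest and 12 lowest called genes, leaving out predicted genes, small RNAs and olfactory receptors, were named, with up to 5 members of each list by smallest p and the members of fixed gene families. Other list members were chosen after their values were seen. Members and the 50 lists (869 of 932 symbols measured) were chosen with earlier results of these data known. Alternatives changed the arrays fitted, weights, prior variance, filter, cluster choice, normalization, replicate block and call rule. Names and promoter windows are from RefSeq (GRCm38.p6), 21698 single-gene clusters having a name there. Windows span 250 bases before the start.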

Additional observations from a re-analysis of the deposited data

How the results depend on the processing

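The count of called genes, 3656 with 1630 higher and 2026 lower in endothelial cells, was recomputed under 20 alternatives. Limma's test against a 2-fold change called 594, 462 higher and 132 lower, and an adjusted p under 0.01 called 2253, of which 1152 were lower, since both rules are stricter. The other alternatives gave 2692 to 3438 genes when single arrays were left out, 2912 with the 6 untreated arrays alone and 3254 to 4137 under the weights, filters and normalizations tried, each within 1.5 times the count above. Directions of all 3656 called genes were kept in each alternative that tested them, except 1 gene under the mean of all clusters. Only array weights, normalization, cluster choice and leaving out an array could change a direction. The other alternatives keep each difference and change its error, the genes tested or the threshold. Deviations from the group means of tumour and endothelial arrays with the same number correlated at 0.028, 0.050 and 0.012. Arrays with different numbers gave -0.051 to 0.023. Such values cannot show whether 2 samples shared an animal, and the labels name no pairs. The numbers were therefore not taken as pairs in the main fit. With the replicate block 3129 genes were called, 1398 higher and 1731 lower. Of the 243 genes named or plotted 7 lost the call, and Adm gained it (1.30, adjusted p = 0.0494).

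With the 6 untreated arrays alone 20 of the 243 genes lost the call and 2, Ackr1 and Pdgfc, gained it. In limma's test against a 2-fold change 98 of the 243 lost it. Among them were Krt8 (adjusted p = 0.339), Krt18 (adjusted p = 0.117) and Vegfa (adjusted p = 0.0679) of the tumour side. Angpt2 (adjusted p = 0.367) and Notch1 (adjusted p = 0.314) of the endothelial side were others. At an adjusted p under 0.01, 17 lost it. Among genes not called, Zeb1 passed without endothelial replicate 1 (0.72, adjusted p = 0.0181), Cav1 without endothelial replicate 2 (0.58, adjusted p = 0.0346), Cdh2 without endothelial replicate 3 (0.43, adjusted p = 0.0286) and Hk2 without tumour replicate 3 (-0.76, adjusted p = 0.0196). After centring on the 75th percentile Cav1 (0.57), Cdh2 (0.48), Vim (0.36) and Zeb1 (0.56) passed, and after median centring Cdh1 (-1.14), Hk2 (-0.65), Ldha (-0.49) and Pdgfa (-0.58). Of genes near 0 and not called, 4 changed sign: Fgfr4 (-0.078 after renewed quantile normalization and -0.058 after median centring), Lyve1 (-0.10 and -0.072 in the same order), Fgf1 (0.096 after centring on the 75th percentile) and Slc2a1. When single arrays were left out their differences ran from -0.056 to 0.10 for Fgfr4, -0.037 to 0.078 for Lyve1, -0.12 to 0.016 for Fgf1 and -0.027 to 0.32 for Slc2a1. The cause was not tested. With 3 arrays a group, the number of arrays limits the precision, and a gene that missed the threshold is not shown to be equal in both cell types.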
